A study of Mus musculus with 12 samples.

Results

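Interferon-stimulated genes are the genes that cells switch on when interferons bind their receptors. Receptor-bound Janus kinases phosphorylate STAT proteins, which join IRF9 in a complex that binds interferon-stimulated response elements in the promoters of these genes. Their products sense viral RNA and DNA, block viral entry and translation, cut viral RNA or feed back on the receptor, and bone-forming cells, like most nucleated cells, carry the machinery.

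A set of 42 such genes, of 25511 genes in the deposited table, was taken by symbol in 7 groups by role, and each symbol matched 1 entry of the table. The cells were primary osteoblasts from the calvariae, the flat skull bones, of neonatal mice, either wild type (WT) or lacking F2rl1, the gene of the protease-activated receptor PAR2 (KO, genotype label F2rl1 -/-). All mice carried the strain label C57Bl/6J. After 48 hours of culture the cells were kept for 4 days in BRFF-HPC1 medium with 20% fetal calf serum, which was either unconditioned or had been conditioned by MDA PCa 2b cells, a human prostate cancer line. The design has 4 groups with 3 libraries each. The labels do not say whether the samples of a group came from separate animals or cultures, so the spread between libraries may be technical.

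Several features of the libraries bear on every result. Libraries 0 and 1 of the unconditioned WT group held the same value for 91.8% of 17538 genes. They differed by less than the sampling noise in a chi-square test of their counts (759 with 15474 degrees of freedom; the next closest pair of libraries had 94770 with 15124) and were counted as 1 library, which leaves 11 in all and 2 in that group. The libraries held 15023994 to 16956754 fragments assigned to genes, those without a symbol included. KO conditioned library 0 stood apart from its group: on the first principal component of all genes tested, with 46.7% of the variance, it lay at -4.81 and the other KO conditioned libraries at 64.8 and 79.1. KO unconditioned library 0 lay near its group there, at -37.2 against -35.6 and -30.8. Its counts stood apart, with a chi-square per degree of freedom of 58.75 and 77.85 against libraries 1 and 2, which had 6.27 between them. The genotype label of 1 sample reads F2rl1 -/- while its title names it WT without conditioning, and the title was followed. F2rl1 itself had 12 to 46 fragments in the libraries labelled KO and 14 to 25 in those labelled WT, so its fragments were not fewer in KO. The part of the gene that was deleted is not given in the sources used here, so fragments over the whole gene do not check the genotype, and WT and KO below mean the labels. The summed level of 10 osteoblast markers was 18750 to 48040 CPM (fragments scaled to a common library size), mainly from collagen I chains and osteopontin. The late markers Bglap (0 to 13 fragments) and Dmp1 (0 to 5) were close to absent. As the sum rests on a few of the markers, it does not check the cell type, which is taken from the label.

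The promoters of the set were examined for the letters of the response element. RefSeq windows of build GRCm38.p6, from 250 bases before to 50 after the start of a gene, were given for 32 of the 42 genes (36 windows). The element was searched as GAAANNGAAA on both strands and the gamma-activated site, the element of the interferon gamma response, as TTCNNNGAA, which reads the same on both strands. The response element was present in the windows of 17 of the 32 genes (53.1%) and in 3.99% of 27025 genes of the whole promoter table, and the gamma-activated site in 7 (21.9%) and 9.55%. The stretches below are shown because they hold the element upstream of the start. They come from 6 genes whose log2 change over both genotypes was above the median of the set and from Gbp2 and Stat2, whose change was below it. Irgm1, Igtp, Oas1a, Gbp7, Oas3 and 1 of the windows of Trim30a also held it upstream and are not printed. Capitals mark the matched letters, TTTC at both ends where the match is on the opposite strand, and overlapping matches run together; each stretch is read 5′ to 3′ along the strand of its gene.
Isg15 (chr4:156200850-156200921, minus strand): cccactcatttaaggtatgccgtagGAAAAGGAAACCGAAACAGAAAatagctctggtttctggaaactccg
Ifit1 (chr19:34640760-34640838, plus strand): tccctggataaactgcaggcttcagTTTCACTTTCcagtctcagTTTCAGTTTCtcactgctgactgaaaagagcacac
Ifit3 (chr19:34583348-34583441, plus strand): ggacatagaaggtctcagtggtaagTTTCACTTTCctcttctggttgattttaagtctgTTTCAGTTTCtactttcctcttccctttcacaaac
Rsad2 (chr12:26456538-26456597, minus strand): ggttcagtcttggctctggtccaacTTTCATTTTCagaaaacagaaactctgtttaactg
Bst2 (chr8:71537562-71537627, minus strand): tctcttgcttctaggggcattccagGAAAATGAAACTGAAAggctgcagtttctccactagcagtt
Gbp3 (chr3:142559974-142560039, plus strand): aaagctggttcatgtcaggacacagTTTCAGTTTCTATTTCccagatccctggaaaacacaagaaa
Gbp2 (chr3:142620579-142620638, plus strand): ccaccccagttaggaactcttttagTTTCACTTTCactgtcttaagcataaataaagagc
Stat2 (chr10:128270251-128270310, plus strand): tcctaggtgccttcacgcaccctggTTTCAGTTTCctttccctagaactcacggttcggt
Isg15 held 3 overlapping matches, the first beginning 78 bases before the start, and Ifit1 held 2, from 104 bases before it. The 2 matches of Ifit3 were separate, the first 156 bases before the start, and that of Stat2 lay farthest out, at 222 bases. Elements downstream of the start, in the window's transcribed bases, were found in Ifih1, Eif2ak2, Ddx58 and 1 of the windows of Trim30a and are not printed. The genes without the letters in this window were Irf7, Irf9, Oasl1, Oasl2, Ifit2, Cmpk2, Samd9l, Herc6, Trim25, Dtx3l, Ifi47, Ifi44, Ifi35, Xaf1 and Lgals3bp. No window was given for Usp18, Dhx58, Zbp1, Oas2, Mx1, Mx2, Parp9, Parp14, Iigp1 and Rtp4.

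In conditioned medium 40 of the set were higher than in unconditioned medium. Over both genotypes, 40 of the 41 genes that passed the filter on low counts rose (adjusted p under 0.05, edgeR's quasi-likelihood test with Benjamini-Hochberg adjustment over 13603 genes), against 10.4% of all genes tested called higher and 20.5% called in either direction. The median log2 change was 1.84 (0.38 to 4.17), and that of all genes tested 0.02. Ifit2, which encodes a translation-blocking protein, was the exception at 0.77 (SE 0.27, adjusted p = 0.0689). Oas3, a synthetase of the 2-5A system, had 0 to 12 fragments per library and was not tested. All 6 conditioned libraries lay above all 5 unconditioned ones for 19 of the 41 genes (7.98% of all genes tested), Isg15, Ifit1, Ifit3 and Irf7 among them. The count of 40 fell to 23 without unconditioned WT library 0 and to 18 without unconditioned WT library 2, where the remaining WT library is assumed to vary like the other groups. The genes called among all tested then numbered 1231 and 1215, against 2787.

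The genotypes differed in how many members passed. In KO cells 38 of 41 rose, against 9.68% of all genes called higher and 18.3% called either way, with a median log2 change of 2.23 (0.46 to 5.14), and all 3 conditioned libraries lay above all 3 unconditioned ones for 36 of the 41 (15.8% of all genes). Ifi47 at 2.58 (SE 0.80, adjusted p = 0.0502), Parp9 at 1.14 (SE 0.37, adjusted p = 0.0556) and Ifit2 at 0.99 (SE 0.36, adjusted p = 0.0755) did not pass. A block by library number within each genotype, a fit chosen after seeing the data, called all 41 in KO, beside 2213 of 13603 genes. A block by library number over all groups called 32 of 41, beside 1821 genes. In the fit within genotype Ifi47, Parp9 and Ifit2 lay at 2.35 (SE 0.57, adjusted p = 0.0458), 1.07 (SE 0.18, adjusted p = 0.0244) and 0.92 (SE 0.18, adjusted p = 0.0317). In WT cells 0 of 41 passed, against 1.78% of all genes called, 1.23% higher. All 41 had a positive log2 change, with a median of 1.21 (0.22 to 3.50), 21 had an unadjusted p under 0.05, and DESeq2 called 11 and limma-voom 0. Beside Irf7 and Ifit3, whose values follow, the smallest p-values in WT were those of Ifi35 at 0.62 (SE 0.16, adjusted p = 0.0785), Lgals3bp at 0.92 (SE 0.24, adjusted p = 0.0909), Zbp1 at 1.78 (SE 0.51), Dhx58 at 1.32 (SE 0.39), Ddx58 at 0.71 (SE 0.22) and Bst2 at 2.10 (SE 0.65). The 3 conditioned WT libraries lay above both unconditioned ones for 31 of the 41 (21.8% of all genes tested). A count that passes in one genotype and not in the other does not show that the genotypes differ, and the direct test is given further on.

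Single libraries decided the size of these counts. The 38 in KO became 11 without KO conditioned library 1, 18 without KO conditioned library 2, 10 without KO unconditioned library 1 and 16 without KO unconditioned library 2, while all genes called went from 2484 to 319, 687, 400 and 457. Without KO conditioned library 0 the count was 41, beside 44.9% of all genes called. The 0 in WT became 10 without KO conditioned library 0, which enters through the shared estimate of spread, beside 6.75% of all genes, and 7 without WT conditioned library 2, beside 444 of 13548 genes. That library was the lowest of its group for 40 of the 41 genes.

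**Figure D1:**
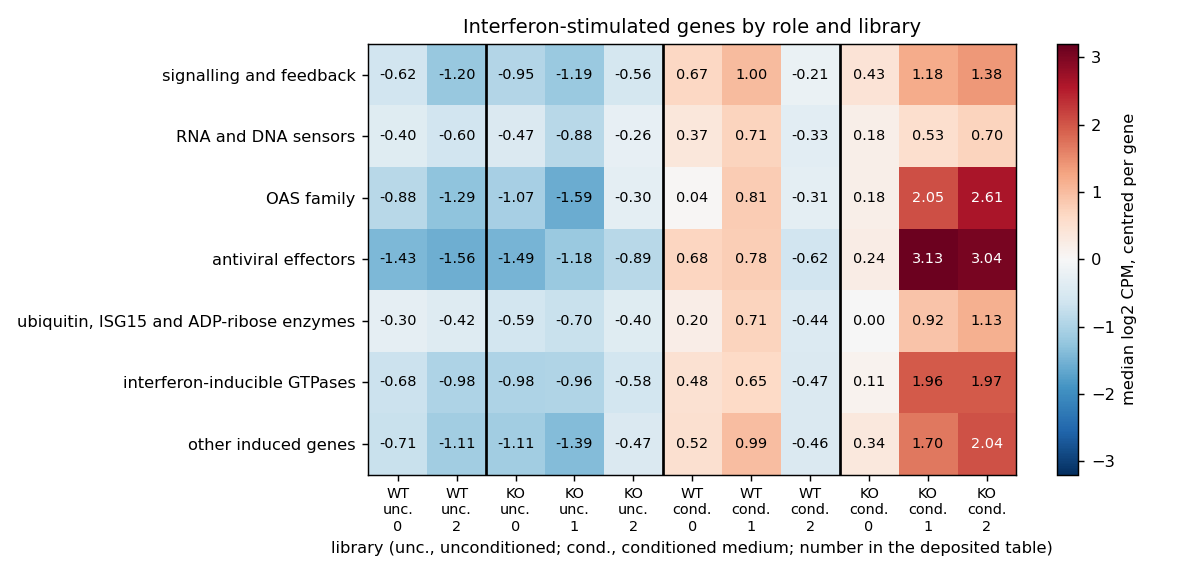
Median level of each role group (rows) in each of the 11 libraries (columns), as log2 CPM centred on each gene's mean over libraries; lines part the 4 groups. KO conditioned libraries 1 and 2 are the highest in every row but that of the sensors. There WT conditioned library 1 lies at 0.71, against 0.53 and 0.70. KO conditioned library 0 lies at 0.00 to 0.43, within the range of the WT conditioned libraries in each row.

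The plot of role medians shows each role group by library. The median centred log2 level over the 41 genes was -0.68 and -0.98 in the unconditioned WT libraries and -0.97, -1.10 and -0.48 in the unconditioned KO libraries. It was 0.47, 0.79 and -0.40 in the conditioned WT libraries and 0.20, 1.31 and 1.91 in the conditioned KO libraries. The highest level of a gene was in KO conditioned library 2 for 30 genes, in KO conditioned library 1 for 7 and in WT conditioned library 1 for 4. The antiviral effectors spanned the widest range, from -1.56 to 3.13, and the sensors the narrowest, from -0.88 to 0.71.

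Signalling and feedback genes all rose over both genotypes and in KO. Irf7, the interferon regulatory factor that amplifies interferon production, had 128 and 75 fragments in the unconditioned WT libraries and 107, 83 and 136 in the unconditioned KO libraries. In conditioned medium it had 366, 430 and 190 in WT and 390, 584 and 722 in KO. No conditioned library overlapped an unconditioned one. The log2 change was 1.91 (SE 0.26, adjusted p = 0.00152) over both genotypes, 2.15 (SE 0.34, adjusted p = 0.00696) in KO and 1.67 (SE 0.39, adjusted p = 0.0602) in WT, the smallest adjusted p of the set in each of these comparisons. Usp18, the protease that removes ISG15 from proteins and damps receptor signalling, had 103 and 73 fragments in unconditioned WT and 80, 31 and 101 in unconditioned KO. It had 498, 566 and 203 in conditioned WT and 398, 1572 and 2390 in conditioned KO, again without overlap between media. Its log2 change was 3.17 (SE 0.50, adjusted p = 0.00282) over both, and 4.11 (SE 0.67, adjusted p = 0.00766) in KO. Irf9, the DNA-binding subunit of the complex that holds STAT2, went from 31.5 ± 3.50 (SD, n = 2) and 28.5 ± 6.14 CPM (n = 3) to 60.9 ± 15.7 in WT and 91.6 ± 33.0 in KO (n = 3 each, as for all conditioned means below). Irf9 changed by 1.32 (SE 0.22, adjusted p = 0.00384) over both and 1.68 (SE 0.30, adjusted p = 0.00929) in KO. Stat2, its partner, changed by 1.34 (SE 0.26, adjusted p = 0.00647) and 1.48 (SE 0.34, adjusted p = 0.0201), from 48.1 to 111 CPM in WT and from 47.5 to 132 in KO.

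**Figure D2:**
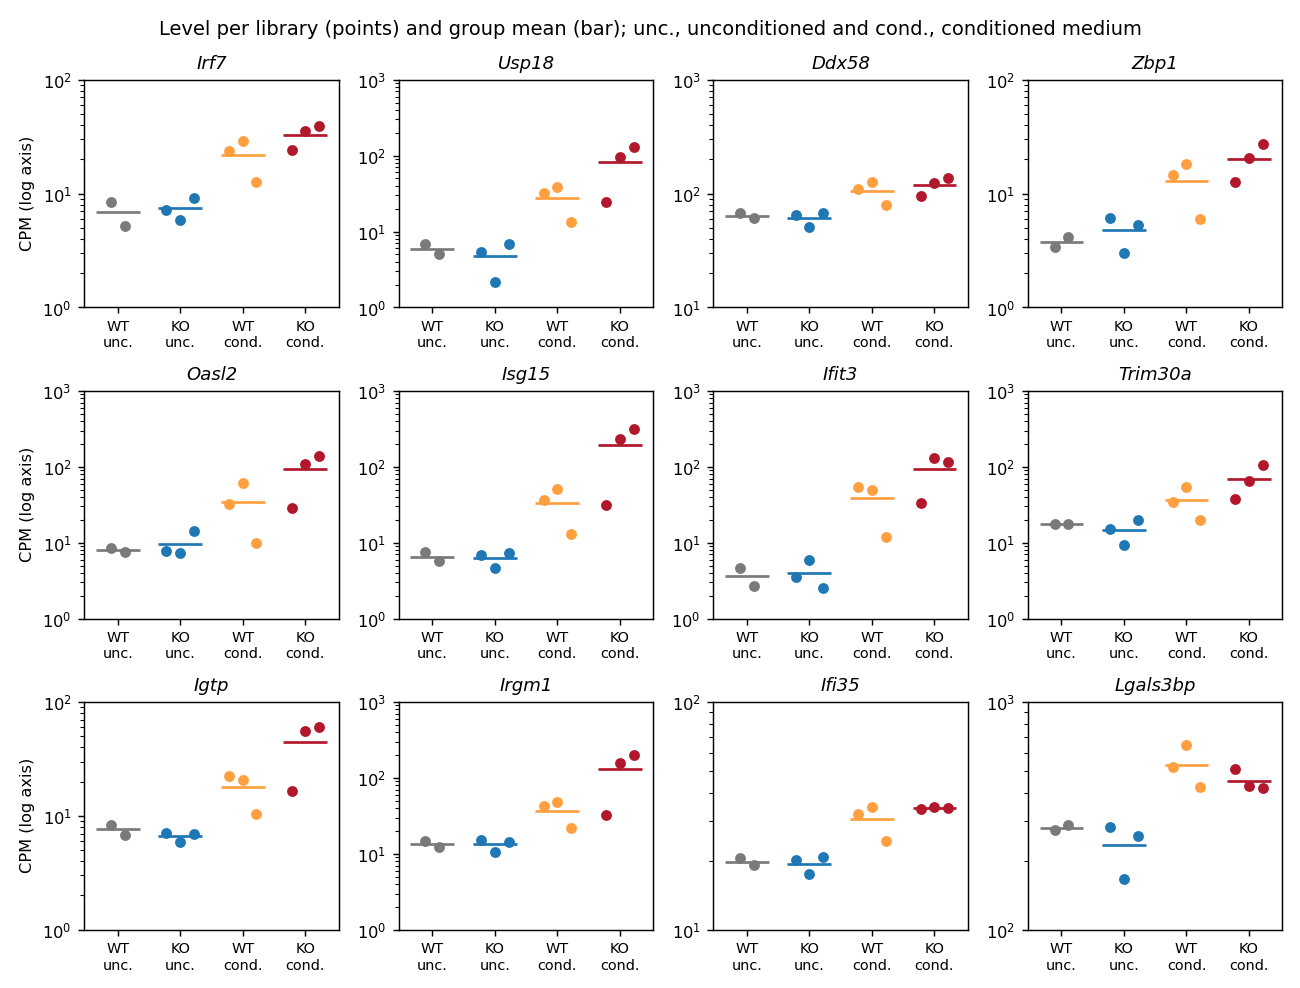
Level in CPM on a log axis of 12 genes, those of smallest p over both genotypes when at most 2 are taken per role group; each point is 1 library and each bar a group mean. In most panels KO conditioned libraries 1 and 2 lie above library 0, as for Isg15 at 31.8 CPM in library 0 against 316 in library 2. For Ifi35 the 3 lie close together, at 33.9 to 34.8 CPM. For Lgals3bp library 0 is the highest, at 509 CPM against 428 and 417.

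Among the sensors, 5 of 5 rose over both genotypes and in KO, by smaller amounts. Ddx58, which encodes RIG-I, the sensor of RNA with triphosphate ends, had 1023 and 868 fragments in unconditioned WT, 961, 717 and 994 in unconditioned KO, 1697, 1864 and 1206 in conditioned WT and 1546, 2017 and 2561 in conditioned KO. All conditioned libraries lay above all unconditioned ones, with a change of 0.84 (SE 0.15, adjusted p = 0.00414) over both and 0.97 (SE 0.19, adjusted p = 0.0125) in KO. Zbp1, the Z-form nucleic acid sensor, had 52 and 59 fragments in unconditioned WT, 90, 43 and 79 in unconditioned KO, 228, 269 and 90 in conditioned WT and 202, 341 and 502 in conditioned KO. WT conditioned library 2 did not exceed the highest unconditioned library, and the change was 1.92 (SE 0.34, adjusted p = 0.00437) over both and 2.06 (SE 0.44, adjusted p = 0.0154) in KO. Ifih1, which encodes MDA5, the sensor of long double-stranded RNA, changed by 1.22 (SE 0.28, adjusted p = 0.0145) and, in KO, by 1.58 (SE 0.37, adjusted p = 0.0207), from 13.1 to 39.3 CPM. Dhx58, which encodes LGP2, a regulator of both helicases, changed by 1.25 (SE 0.26, adjusted p = 0.00925) over both and by 1.19 (SE 0.34, adjusted p = 0.0388) in KO. Its levels in conditioned medium were close, at 15.6 ± 7.03 CPM in WT and 14.5 ± 0.879 in KO. Eif2ak2, which encodes the translation-blocking kinase PKR, showed the smallest change of the set, 0.38 (SE 0.10, adjusted p = 0.0284) over both and 0.46 (SE 0.14, adjusted p = 0.0455) in KO. Its table entry also holds a non-coding transcript of Gm6548. The authors' start-site groups assign Gm6548 1036 and 1298 fragments in unconditioned WT and KO and 1080 and 1362 in conditioned WT and KO. They assign Eif2ak2 itself 1054 and 1002 fragments, then 1564 and 2345, so the transcripts of Eif2ak2 moved more than the entry as a whole.

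The oligoadenylate synthetases make 2-5A, which switches on the nuclease RNase L. Of the 5 genes 4 were tested, and all 4 rose over both genotypes and in KO. Oasl2, a family member with ubiquitin-like domains, had 130 and 109 fragments in unconditioned WT, 114, 103 and 212 in unconditioned KO, 509, 899 and 150 in conditioned WT and 461, 1791 and 2601 in conditioned KO. WT conditioned library 2 and the highest unconditioned KO library overlapped. Oasl2 changed by 2.67 (SE 0.54, adjusted p = 0.00839) over both and 3.25 (SE 0.70, adjusted p = 0.017) in KO. Oasl1, an inhibitor of Irf7 translation in mouse cells, changed by 1.99 (SE 0.51, adjusted p = 0.0234) and 3.27 (SE 0.68, adjusted p = 0.0144), at only 4 to 141 fragments per library. Oas1a, a synthetase, changed by 1.77 (SE 0.47, adjusted p = 0.0259) and 2.35 (SE 0.62, adjusted p = 0.0304), and Oas2, a larger synthetase, by 2.05 (SE 0.55, adjusted p = 0.0278) and 2.69 (SE 0.70, adjusted p = 0.0302). Oas2 rose from 0.575 to 1.55 CPM in WT and from 0.792 to 5.16 in KO. Most of the rise in the KO mean of these 4 genes came from libraries 1 and 2: Oas2 had 21, 92 and 159 fragments in the conditioned KO libraries.

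The antiviral effectors held the largest changes, with a median of 3.37 over both genotypes and 4.35 in KO, where 9 of 10 rose. Isg15, the ubiquitin-like modifier, had 114 and 81 fragments in unconditioned WT and 103, 65 and 107 in unconditioned KO. In conditioned medium it had 574, 753 and 199 in WT and 511, 3870 and 5865 in KO. Every conditioned library exceeded every unconditioned one, but KO conditioned library 0 lay within the WT range and the other KO libraries well above it. Isg15 changed by 3.65 (SE 0.61, adjusted p = 0.00345) over both, 4.96 (SE 0.81, adjusted p = 0.00795) in KO and 2.35 (SE 0.87, adjusted p = 0.218) in WT. Ifit3, of the family that binds foreign RNA, had 71 and 38 fragments in unconditioned WT, 52, 85 and 37 in unconditioned KO, 846, 730 and 180 in conditioned WT and 532, 2137 and 2126 in conditioned KO, without overlap between media. Its change was 3.96 (SE 0.55, adjusted p = 0.00166) over both, 4.53 (SE 0.71, adjusted p = 0.00704) in KO and 3.39 (SE 0.81, adjusted p = 0.065) in WT. The Ifit3 entry also holds the neighbouring I830012O16Rik, to which 18.5% of its fragments in conditioned KO were assigned.

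The remaining effectors varied in size. Ifit1, which binds RNA that lacks the host cap, changed by 3.73 (SE 0.63, adjusted p = 0.00362) over both and had the largest change in KO, 5.14 (SE 0.85, adjusted p = 0.00795), from 7.92 ± 0.346 to 279.5 ± 205 CPM. Rsad2, which encodes viperin, changed by 4.17 (SE 0.74, adjusted p = 0.00467) over both and 4.83 (SE 0.88, adjusted p = 0.0103) in KO, but from only 2 to 10 fragments in the unconditioned libraries. Its neighbour Cmpk2, a nucleotide kinase, changed by 1.84 (SE 0.53, adjusted p = 0.0349) and 2.61 (SE 0.69, adjusted p = 0.0307). Mx1 and Mx2 encode Mx proteins, dynamin-like GTPases known for trapping viral nucleocapsids, and C57BL/6 mice carry a defective Mx1 allele. Mx1 had 4, 4 and 5 fragments in unconditioned KO and 7, 189 and 131 in conditioned KO, a change of 4.38 (SE 1.03, adjusted p = 0.0215). In WT it had 0 and 2 and then 13, 16 and 5 fragments, too few at the start for a firm fold, and over both genotypes the fitted change was 3.85 (SE 0.92, adjusted p = 0.0174). Mx2 had 15, 12 and 19 fragments in unconditioned KO and 51, 435 and 622 in conditioned KO, and changed by 4.32 (SE 0.84, adjusted p = 0.0118) in KO and 3.08 (SE 0.65, adjusted p = 0.00999) over both. The authors' counting assigned 100% of the Mx2 fragments in conditioned WT and in conditioned KO to a non-coding transcript. In unconditioned WT and KO that share was 64.3% and 33.3%, at only 12 to 19 fragments of the gene per library. These are pooled shares of each group, and single libraries spanned 7.04% to 100%. The 2 transcripts lie in 1 start-site group and have lengths of 2422 and 2417 bases. The difference in share was not tested. Bst2, which encodes tetherin, the membrane protein that holds budding virus, changed by 2.38 (SE 0.43, adjusted p = 0.00526) and 2.65 (SE 0.56, adjusted p = 0.0158). Samd9l, a restriction factor of poxviruses, changed by 0.93 (SE 0.18, adjusted p = 0.00637) and 1.25 (SE 0.24, adjusted p = 0.0109).

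Enzymes that attach ubiquitin, ISG15 or ADP-ribose rose by less, with 6 of 6 called over both genotypes and 5 of 6 in KO. Trim30a, a mouse TRIM protein, had 269 and 250 fragments in unconditioned WT, 225, 131 and 295 in unconditioned KO, 530, 814 and 300 in conditioned WT and 602, 1081 and 1955 in conditioned KO. Scaled to library size, WT conditioned library 2 and the highest unconditioned KO library were level at 19.9 CPM, and the change was 1.64 (SE 0.34, adjusted p = 0.00978) over both and 2.23 (SE 0.45, adjusted p = 0.0133) in KO. Herc6, the ligase for ISG15 in mice, changed by 1.03 (SE 0.24, adjusted p = 0.0161) and 1.46 (SE 0.32, adjusted p = 0.0176). Trim25, the ligase that activates RIG-I, changed by 0.63 (SE 0.15, adjusted p = 0.0169) over both and 1.05 (SE 0.20, adjusted p = 0.0114) in KO, and lay at 0.22 (SE 0.22) in WT, the smallest WT value of the set. Parp14, an ADP-ribosyltransferase, changed by 0.83 (SE 0.22, adjusted p = 0.0246) and 1.06 (SE 0.29, adjusted p = 0.0333). Dtx3l, a ubiquitin ligase that works with PARP9, changed by 1.04 (SE 0.26, adjusted p = 0.0192) and 1.24 (SE 0.34, adjusted p = 0.0345), and Parp9 by 0.88 (SE 0.28, adjusted p = 0.0497) over both. Parp9 and Dtx3l share 1 locus in the table (chromosome 16, 35926515 to 35972621), and as the library kit does not mark strand their fragments could not be fully told apart.

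The interferon-inducible GTPases, which attack the vacuoles of intracellular microbes, all rose over both genotypes, and 6 of 7 in KO. Irgm1, a regulator of the family, had 223 and 174 fragments in unconditioned WT, 222, 152 and 212 in unconditioned KO, 655, 708 and 327 in conditioned WT and 523, 2577 and 3681 in conditioned KO. Igtp, an effector of the same family, had 127 and 98, then 105, 83 and 103, 347, 308 and 157 and 264, 919 and 1122 fragments in the same groups. In both genes the media did not overlap, and KO conditioned library 0 lay within the WT range. Irgm1 changed by 2.37 (SE 0.43, adjusted p = 0.00525) over both and 3.28 (SE 0.58, adjusted p = 0.00929) in KO, and Igtp by 1.98 (SE 0.35, adjusted p = 0.00447) over both and 2.74 (SE 0.46, adjusted p = 0.00861) in KO. The guanylate-binding proteins differed among themselves: Gbp3 changed by 2.07 (SE 0.39, adjusted p = 0.00614) and 2.80 (SE 0.52, adjusted p = 0.0107), Gbp2 by 1.01 (SE 0.23, adjusted p = 0.0134) and 1.38 (SE 0.30, adjusted p = 0.0166), and Gbp7 by 0.94 (SE 0.19, adjusted p = 0.00777) and 0.98 (SE 0.25, adjusted p = 0.0266). Iigp1, an immunity-related GTPase whose entry also holds Gm4951 (24.0% of its fragments in conditioned KO), changed by 1.33 (SE 0.37, adjusted p = 0.0309) and 2.04 (SE 0.49, adjusted p = 0.0232). Ifi47 changed by 2.29 (SE 0.67, adjusted p = 0.0383) over both, at 4 to 117 fragments. These families hold near-identical copies, between which the authors' counting could split reads, so the values of single Gbp, Oas1 and immunity-related GTPase genes are uncertain to that degree.

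Among the other induced genes 5 of 5 rose over both genotypes and in KO. Ifi35, an interferon-induced leucine-zipper protein, had 313 and 274 fragments in unconditioned WT, 298, 249 and 310 in unconditioned KO, 501, 514 and 372 in conditioned WT and 545, 571 and 637 in conditioned KO. The 3 conditioned KO libraries lay within 33.9 to 34.8 CPM of each other, unlike those of most members. Ifi35 changed by 0.72 (SE 0.10, adjusted p = 0.00198) over both and 0.81 (SE 0.14, adjusted p = 0.00866) in KO. Lgals3bp, a secreted galectin ligand, had 4153 and 4125 fragments in unconditioned WT, 4173, 2368 and 3839 in unconditioned KO, 8095, 9620 and 6377 in conditioned WT and 8182, 7024 and 7739 in conditioned KO. It changed by 0.94 (SE 0.21, adjusted p = 0.0201) in KO and by 0.93 (SE 0.16, adjusted p = 0.00437) over both, and its conditioned KO libraries spanned 417 to 509 CPM. Ifi44, an interferon-induced protein of the cytoplasm, changed by 2.39 (SE 0.64, adjusted p = 0.0265) and 3.03 (SE 0.83, adjusted p = 0.0345). Rtp4, a receptor-trafficking chaperone, changed by 2.36 (SE 0.51, adjusted p = 0.0111) and 3.09 (SE 0.67, adjusted p = 0.0167), and Xaf1, a pro-apoptotic partner of XIAP, by 2.02 (SE 0.36, adjusted p = 0.00492) and 2.63 (SE 0.48, adjusted p = 0.0103).

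**Figure D3:**
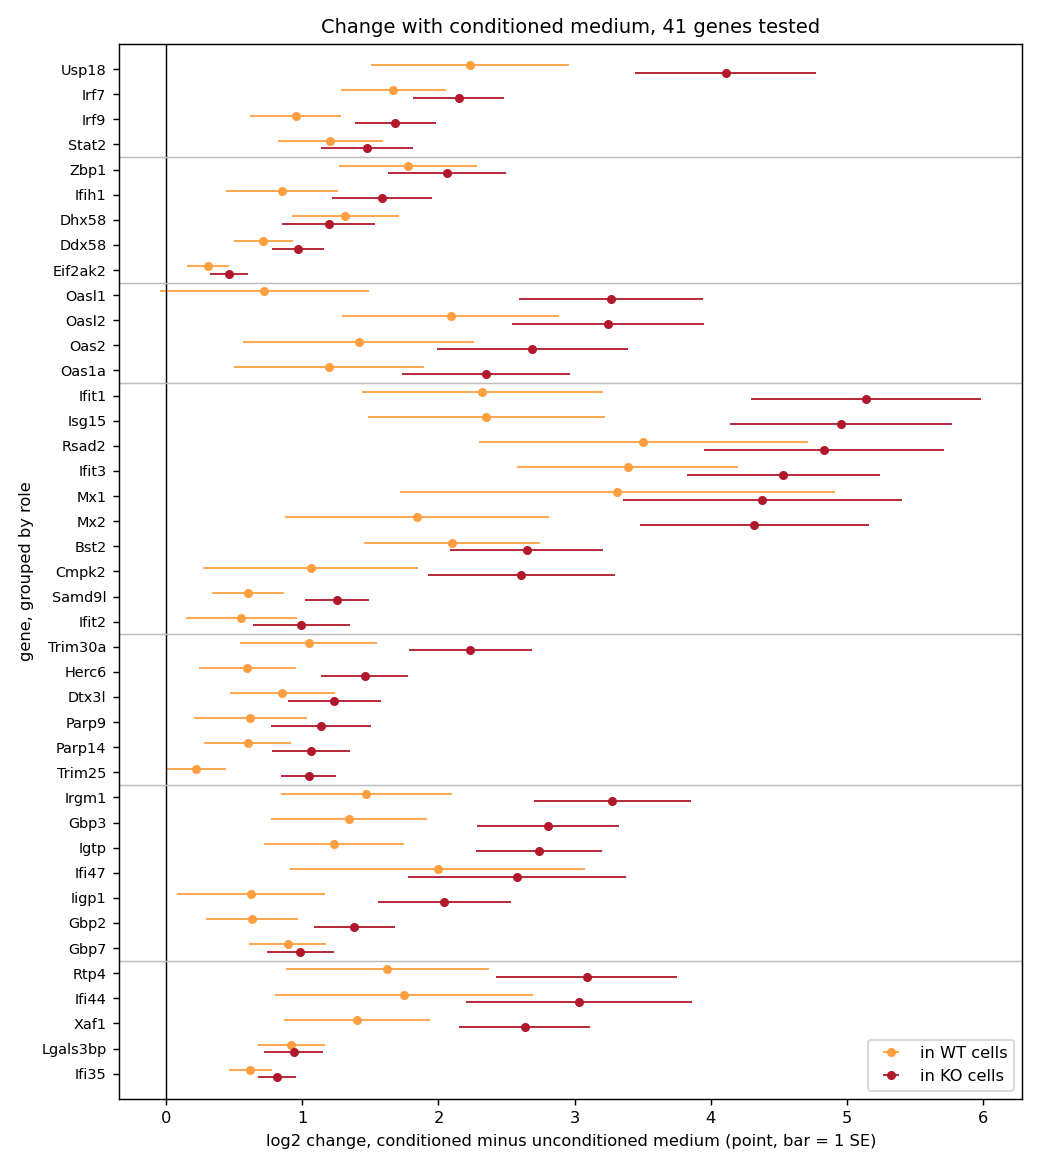
Log2 change with conditioned medium of each of the 41 genes tested, in WT (orange) and KO cells (red), by role; bars are 1 SE. Every point lies above 0, from 0.22 for Trim25 in WT to 5.14 for Ifit1 in KO, and the KO point exceeds the WT point for all genes but Dhx58.

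Per length, the order of the genes changed. By the deposited FPKM (fragments per kilobase of transcript, scaled to library size), the highest in unconditioned WT were Lgals3bp at 122 ± 9.45 (SD, n = 2), the merged Eif2ak2 entry at 43.1 ± 8.64 and Bst2 at 23.5 ± 4.02, with Isg15 eighth at 9.58 ± 1.47. In conditioned KO Isg15 was first at 282 ± 214 FPKM, ahead of Lgals3bp at 193 ± 12.2, Bst2 at 186 ± 108 and Ifit1 at 99.3 ± 74.0. The spread of Isg15 between the conditioned KO libraries was wide, so its place against Lgals3bp and Bst2 lies within that spread. Mx1, Oas2, Oasl1, Cmpk2 and Oas3 were under 1 FPKM in the mean over all libraries, though the conditioned KO means of Oasl1, of Mx1 (2.16 ± 1.90) and of Oas2 (1.23 ± 0.894) lay above 1. The genes with the response element letters in their window had a median log2 change over both genotypes of 1.88 (16 tested, 0.38 to 4.17) and those without a median of 1.32 (15 tested, 0.63 to 2.67). The ranges overlap, and this difference was not tested.

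Neighbours in the genome did not always move by like amounts. Ifit2, Ifit3 and Ifit1 lie next to each other on chromosome 19 (34550694 to 34576534, 34583529 to 34640743 and 34640889 to 34650009, GRCm38). Their log2 changes in KO were 0.99 (SE 0.36), 4.53 (SE 0.71) and 5.14 (SE 0.85), and only the windows of Ifit3 and Ifit1 held the response element letters. Gbp7, Gbp3 and Gbp2 lie in a row on chromosome 3, from 142530336 to 142638008, with changes in KO of 0.98, 2.80 and 1.38. A window of each of these Gbp genes held the letters, though their changes differed. Rsad2 and Cmpk2, close by on chromosome 12, changed in KO by 4.83 and 2.61, and Mx1 and Mx2 on chromosome 16 by 4.38 and 4.32. The window of Rsad2 held the letters and that of Cmpk2 did not, and no window was given for Mx1 and Mx2. Differences between genes, and any tie between the letters and the size of a change, were not tested.

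In unconditioned medium no member passed between the genotypes. Of the 41 genes 0 were called (edgeR, with 0 at an unadjusted p under 0.05, and 0 by DESeq2 and by limma-voom), against 0.00735% of all genes tested. The median log2 difference of KO minus WT was -0.02, and 19 of 41 were positive. The libraries of KO lay above those of WT for 3 genes, Mx1, Rsad2 and Ifi47, against 9.12% of all genes, and below for 2, Herc6 and Trim25, against 8.01%, so both shares were near those of all genes or under them. Trim25 had the smallest p, at -0.34 (SE 0.22, adjusted p = 0.998). Mx1, at 0 and 2 fragments in WT and 4, 4 and 5 in KO, and Rsad2, at 3 and 2 and 4, 10 and 6, were scarce in both genotypes. Other members by p were Ifi47 at 1.49 (SE 1.10), Lgals3bp at -0.25 (SE 0.24), Eif2ak2 at 0.16 (SE 0.16), Samd9l at -0.25 (SE 0.26) and Herc6 at -0.31 (SE 0.36). With both KO libraries numbered 0 left out, 1 of 41 members was called in this comparison, beside 659 of 13547 genes.

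In conditioned medium the members were higher in KO in the mean, but the KO libraries did not agree among themselves. With all libraries 0 of 41 passed (edgeR; 19 at an unadjusted p under 0.05, and 0 by DESeq2 and by limma-voom), against 0% of all genes. The median log2 difference was 0.94, 39 of 41 were positive, and no gene had all KO libraries above all WT libraries (4.65% of all genes did). The 8 of smallest p were Rsad2 at 2.72 (SE 0.75, adjusted p = 0.357), Mx2 at 2.67 (SE 0.75), Isg15 at 2.53 (SE 0.71), Oasl1 at 2.14 (SE 0.62), Irgm1 at 1.80 (SE 0.54), Mx1 at 3.07 (SE 0.92), Ifit1 at 2.42 (SE 0.74) and Igtp at 1.31 (SE 0.43), all with the same adjusted p. Lgals3bp at -0.23 (SE 0.21) and Dhx58 at -0.10 (SE 0.33) were the negative ones. KO conditioned library 0 exceeded all WT conditioned libraries for 0 members and lay within their range for 40, while 17.1% of all genes were above. KO conditioned libraries 1 and 2 each exceeded them for 36 members, against 35.1% and 38.5% of all genes.

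Without KO conditioned library 0, 28 of 41 members were higher in KO, beside 33.2% of all genes called either way (4507 of 13575). The median log2 difference was then 1.31. Trim25 was at 0.73 (SE 0.09, adjusted p = 0.00149), Rsad2 at 3.25 (SE 0.43, adjusted p = 0.00161), Irgm1 at 2.27 (SE 0.29, adjusted p = 0.00165), Mx1 at 3.63 (SE 0.49, adjusted p = 0.0017), Mx2 at 3.19 (SE 0.46, adjusted p = 0.00209), Oasl1 at 2.61 (SE 0.39, adjusted p = 0.00221), Isg15 at 3.05 (SE 0.45, adjusted p = 0.00228) and Igtp at 1.72 (SE 0.27, adjusted p = 0.00244). The genes not called then were Bst2, Oas1a, Samd9l, Dtx3l, Irf7, Zbp1, Ddx58, Stat2, Lgals3bp, Ifi35, Parp14, Gbp7 and Dhx58. The count of members in this comparison depended on whether that library was included, and the labels give no ground to leave it out.

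**Figure D4:**
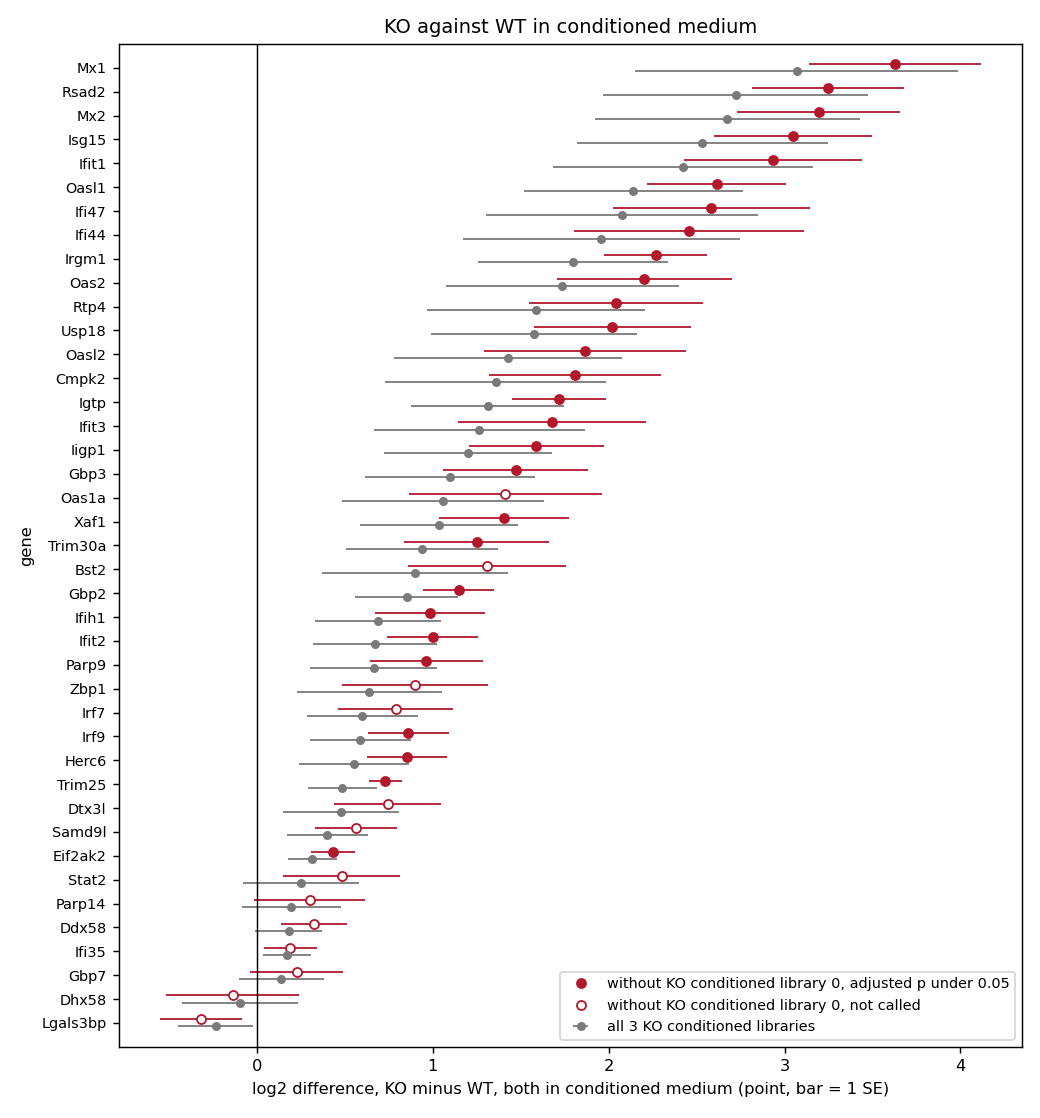
Log2 difference of KO minus WT in conditioned medium for each of the 41 genes, with all libraries (grey) and without KO conditioned library 0 (red, filled where the adjusted p is under 0.05); bars are 1 SE. Leaving out that library moves the median from 0.94 to 1.31, narrows the bars of most genes and turns 0 calls into 28.

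The test of the difference between the 2 medium effects, KO minus WT, called 0 of 41 members (edgeR; 6 at an unadjusted p under 0.05, 0 by DESeq2 and 0 by limma-voom) and 0% of all genes. The median was 0.86 and 40 of 41 were positive, all but Dhx58 at -0.12 (SE 0.51). The smallest p-values were those of Trim25 at 0.83 (SE 0.30, adjusted p = 0.819), Ifit1 at 2.82 (SE 1.10), Oasl1 at 2.54 (SE 1.02), Isg15 at 2.60 (SE 1.08), Igtp at 1.51 (SE 0.66), Irgm1 at 1.80 (SE 0.81), Usp18 at 1.88 (SE 0.92) and Iigp1 at 1.42 (SE 0.71), all with the same adjusted p. Without KO conditioned library 0, 7 members were called, beside 10.5% of all genes. The comparisons share libraries with each other, so their values for the same gene are not independent.

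Genes above and around the set in the pathway were measured beside it. Of 21 interferon genes, 18 had 0 fragments in every library, Ifnb1 and all Ifna genes listed by number among them, which allows up to 3 fragments per library, and Ifnab, Ifne and Ifnz had at most 1, 1 and 6. Of the 9 receptor chains and Janus kinases tested 1 was called over both genotypes, lower: Jak2, a kinase of the interferon gamma receptor, at -0.70 (SE 0.19, adjusted p = 0.0282). Ifnar1, a chain of the type I receptor named after its value was seen, was at 0.13 (SE 0.10, adjusted p = 0.362). Of 10 sensing adaptors and kinases tested, Tlr3, the endosomal sensor of double-stranded RNA, rose (0.98 (SE 0.23, adjusted p = 0.0156)) and Tmem173, which encodes STING, fell (-0.69 (SE 0.08, adjusted p = 0.000922), and -0.60 (SE 0.12, adjusted p = 0.0411) in WT alone). Over both genotypes 20.5% of all genes tested were called in either direction, so neither of these 2 lists held more calls than genes in general.

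Of 10 class I antigen presentation genes, all tested, 5 rose over both genotypes, against 10.4% of all genes called higher. B2m, the light chain of class I molecules, rose by 1.35 (SE 0.19, adjusted p = 0.00168) over both genotypes and by 1.44 (SE 0.28, adjusted p = 0.0411) in WT, where no member of the antiviral set passed. Tap1, a subunit of the peptide transporter, Psmb10, an immunoproteasome subunit, and Nlrc5, the class I transactivator, rose, by 0.57 (SE 0.10, adjusted p = 0.0046) for Tap1, 0.55 (SE 0.12, adjusted p = 0.00987) for Psmb10 and 1.24 (SE 0.29, adjusted p = 0.0153) for Nlrc5. H2-D1, a class I heavy chain that shares its entry with H2-L, was the other one called. Of 46 entries tested from a list of further interferon-stimulated genes, 25 rose and 2 fell over both genotypes, against 10.4% of all genes called higher. Those with the smallest p were Ifitm1, a membrane protein that blocks viral entry and fell (-1.89 (SE 0.26, adjusted p = 0.00169)), Slfn5 (1.61 (SE 0.23, adjusted p = 0.0017)), Apol9a (1.65 (SE 0.26, adjusted p = 0.00259)) and Trim34a (1.59 (SE 0.25, adjusted p = 0.00288)). In KO 23 of the same list were higher and 2 lower.

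Start sites and transcripts were described from the authors' tables. In the authors' deposited table of start-site group tests, 29 of 42 tests of members were significant for medium in WT, against 8.76% of all tests, and 44 of 47 for medium in KO, against 16.8%. The authors' tables list the equal unconditioned WT libraries 0 and 1 as separate replicates, which were counted as 1 library in the fits above. In the same deposited table of the authors, KO against WT was significant in 0 of 40 tests in unconditioned medium (2.21% of all) and in 27 of 48 in conditioned medium (7.2% of all), and every significant member test was higher in conditioned medium or in KO. In the authors' deposited table of promoter use, 0 of 8 member tests were significant in each comparison, beside 0.678% to 1.48% of all tests. Of the 42 members 18 had several transcripts in the deposited tables and 9 several start-site groups. Zbp1, for example, had 50.9% of its fragments on its longer transcript in unconditioned WT and 52.0% in unconditioned KO, and 63.6% and 64.9% in conditioned WT and KO. These are pooled shares of each group. Single libraries spanned 40.0% to 74.8%, with as few as 43 fragments of the gene in a library, and the difference was not tested.

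Markers of other cells that the cultures could hold were measured beside the set. For the calls over both genotypes that follow, the share of all genes tested called in either direction was 20.5%. Of 15 macrophage and leukocyte markers in the table, 13 passed the filter and 1, Fcer1g, rose over both genotypes (1.22 (SE 0.30, adjusted p = 0.0199)). Their summed level was 68.6 to 104 CPM in unconditioned WT, 56.6 to 86.7 in unconditioned KO, 114 to 151 in conditioned WT and 51.7 to 134 in conditioned KO, with Cx3cr1 at 0 to 4 and Aif1 at 0 to 1 fragments. Of 5 markers of plasmacytoid dendritic cells, the main interferon makers of blood, Siglech had 0 fragments in all libraries and only Tcf4, which many cells express, passed the filter and was not called. Of the osteoclast list 2 of 4 tested rose, Atp6v0d2 (2.21 (SE 0.20, adjusted p = 0.000354)) and Ctsk (1.39 (SE 0.19, adjusted p = 0.00151)), while Dcstamp had 0 fragments. The osteoclast sum was 99.2 to 163 CPM in unconditioned and 233 to 416 in conditioned libraries. Of 3 endothelial genes tested Kdr and Tek rose (1.89 (SE 0.50, adjusted p = 0.0259) and 0.86 (SE 0.27, adjusted p = 0.0461)), at sums of 3.95 to 15.3 CPM. Of 8 osteoblast markers tested 1 fell, Alpl, the mineralising phosphatase, at -1.43 (SE 0.34, adjusted p = 0.0177). Of 6 skeletal muscle markers tested the smallest adjusted p was that of Ckm, at -2.19 (SE 0.76, adjusted p = 0.0662), and of 3 keratinocyte genes Trp63 fell (-1.30 (SE 0.35, adjusted p = 0.0262)). The part of other cells in the rise of the antiviral genes was not tested, and in bulk samples a change in the number of cells of a type and a change in RNA per cell cannot be told apart.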

How the data were processed

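Per the submitters' processing notes, reads were processed with CASAVA 1.8.2, TopHat2 2.0.9, Cufflinks 2.1.1 and Cuffdiff 2.1.1 on mouse build mm10 (GRCm38). Libraries were made with the TruSeq RNA v2 kit, which does not mark strand, from RNA of an integrity number above 7.5, per the labels' protocols. The deposited gene, transcript and start-site tables give the authors' estimated counts (expected fragments) for 12 libraries, numbered 0 to 2 per group and not tied to sample titles, and their FPKM. The start-site and promoter tables hold the authors' own tests with their q-values.

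Estimated counts were rounded. Entries without a gene symbol (1714, 2.69% to 3.10% of fragments) were left out of library sizes and tests. edgeR 4.0.16 (R 4.3.3) with TMM scaling, its filter on low counts and a robust quasi-likelihood fit to 4 groups was run over 13603 genes, with Benjamini-Hochberg adjustment and 0.05 as threshold. Standard errors were taken as |log2 change| over the root of the F statistic. CPM are TMM-scaled. The fit was tested on simulated data. DESeq2 1.42.0, limma 3.58.1 (voom), other scalings, filters and left-out libraries were alternatives. For all members, values were given by role; per library for the 12 of smallest p, at most 2 per role, and with statistics for the members called or, up to 8, of smallest p in each comparison.

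The members, lists and tests were chosen with earlier results of these data known. The list of pathway transcription factors and inhibitors is not reported here. Within KO, the deviations of same-number libraries from their group means had correlations of 0.35, 0.24 and 0.32 over genes. KO libraries of different number and medium ranged from -0.36 (conditioned library 0 with unconditioned library 2) to 0.28 (conditioned library 1 with unconditioned library 2). The sample titles repeat their numbers in both media, as in KO1 Control and KO1 MDA, but do not say that samples were paired. Libraries of different genotype reached 0.48 (conditioned libraries 1 of KO and WT). Correlations of this size therefore do not show pairing, and pairing KO libraries by number is an assumption of the block fits. Within WT the pair numbered 2 had 0.44, and the merged library had -0.15 if numbered 0 and 0.48 if numbered 1, so pairing there could not be decided.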

Additional observations from a re-analysis of the deposited data

How the results depend on the processing

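No value that passed changed sign under any alternative run. The members called with medium over both genotypes were 29 to 41 and in KO 28 to 41 under the alternatives that kept all groups whole; in WT they were 11 with DESeq2, 8 with the equal libraries as 2, and 10 with both KO libraries 0 left out. Leaving out those 2 also gave 1 member in unconditioned and 27 in conditioned medium for KO against WT, and 8 for the interaction. All genes called then numbered 1589 (WT), 6822 (KO), 6590 (both), 659 and 5765 (KO against WT, unconditioned and conditioned) and 2605 (interaction). Genes called in WT were 886 with DESeq2 and 923 with the equal libraries as 2, and DESeq2 called 2 genes for KO against WT in conditioned medium. For KO against WT in unconditioned medium limma-voom called 0 genes.

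Leaving out 1 library at a time gave these ranges of members called: 0 to 10 in WT, 10 to 41 in KO, 18 to 41 over both, 0 to 0 and 0 to 28 for KO against WT in unconditioned and conditioned medium, and 0 to 7 for the interaction. For all genes the ranges were 0 to 916, 319 to 6094, 1215 to 5652, 0 to 2, 0 to 4507 and 0 to 1419. The cause was not tested.

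With the library number as a replicate block over all groups, 32 members were called in KO and 32 over both genotypes, of 1821 and 2350 genes called in all, and 0 genes for KO against WT in unconditioned medium. With the block nested in genotype, chosen after seeing the data, 155 genes were called in WT, 41 members in KO and 38 over both, of 2213 and 2602 genes; the merged WT library was numbered 0 in both. At this depth, genes at a few fragments such as Oas3 give no usable change.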
